A study of Mus musculus with 6 samples.

Results

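CDK inhibitor genes encode small proteins that hold back the cyclin-dependent kinases, the enzymes that drive the cell division cycle. Their transcripts were followed in mouse blood-forming cells. The 7 genes were chosen by name: Cdkn1a, Cdkn1b and Cdkn1c of the Cip/Kip family, and Cdkn2a, Cdkn2b, Cdkn2c and Cdkn2d of the INK4 family. They are 7 of 23282 gene numbers in the count files, and each was found by its NCBI gene number in all 9 libraries. The label fits the rule, since both families are complete.

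The mice were on a mixed 129/Sv and C57BL/6 background. LSK cells are bone marrow cells without lineage markers that carry Sca1 and c-Kit, and they hold stem cells and early progenitors. The wild type LSK library (1) and the library labelled Mll4 deleted (1; Mll4f/f with Cre) came from littermates 2 months old. Both carried MxCre and both were given polyIC, which switches that Cre on in blood cells and in other interferon-responsive tissue. About 50 cells went into each library, and the cDNA was amplified. The other cells were whole bone marrow transformed with MLL-AF9, a leukaemia fusion gene, and all of them were labelled Mll4f/f or MLL4-/-. In the first set, called the first transformation here, transformed Mll4f/f marrow was infected with MSCV-Cre-IRES-Tomato (labelled Mll4 deleted, 2 libraries) or with the empty vector (intact, 2 libraries), and sorted 5 days later. In a separate transformation, marrow labelled MLL4-/- received MLL-AF9-neo together with FOXO3-IRES-GFP (2 libraries) or the empty vector (1 library), was selected with G418 and sorted for GFP. FOXO3 is a forkhead transcription factor, and Mll4 (Kmt2d) methylates histone H3 at lysine 4. Cre goes with the deletion in the first transformation, so the effects of Cre and of Mll4 loss cannot be told apart there. The labels do not say which cultures or animals the paired libraries came from. Each pair of the first set held a female and a male library by its RNA, so those pairs came from different animals, whereas the spread within the FOXO3 pair may be technical.

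The Cip/Kip proteins bind cyclin and kinase together and mainly restrain CDK2, whereas INK4 proteins bind CDK4 and CDK6 before cyclin D does. Both keep the RB protein active, and active RB silences the E2F targets that a cell needs to enter S phase. In blood stem cells, p57 (Cdkn1c), p27 (Cdkn1b) and p18 (Cdkn2c) are known as brakes on cycling. The Cdkn2a locus is known as a barrier to transformation, and it encodes p16INK4a together with p19ARF, an unrelated protein that stabilises p53.

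Upstream sequences are shown for the 3 INK4 genes whose levels differed most between cells with FOXO3 and cells with the empty vector, because FOXO3 binds DNA. They were read from the RefSeq promoter table of GRCm38.p6 and run 5′ to 3′ on the minus strand, over the 250 bases before each listed start. Capitals mark matches, on either strand, to the 5 motifs that were searched.
Cdkn2c, first listed start, chr4:109666757-109667006: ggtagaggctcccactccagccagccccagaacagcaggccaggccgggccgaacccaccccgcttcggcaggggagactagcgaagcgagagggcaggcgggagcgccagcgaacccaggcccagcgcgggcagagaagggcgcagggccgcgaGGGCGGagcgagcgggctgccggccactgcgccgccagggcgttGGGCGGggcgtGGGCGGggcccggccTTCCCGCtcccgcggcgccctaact
Cdkn2a, upstream start (the ARF transcript), chr4:89294620-89294869: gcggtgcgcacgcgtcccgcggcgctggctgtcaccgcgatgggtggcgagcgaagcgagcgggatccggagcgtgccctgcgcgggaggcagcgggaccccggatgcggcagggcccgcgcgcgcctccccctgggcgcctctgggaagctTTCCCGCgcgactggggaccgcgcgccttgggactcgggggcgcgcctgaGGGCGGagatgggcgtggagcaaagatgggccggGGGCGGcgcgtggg
Cdkn2a, downstream start (the INK4a transcript), chr4:89282193-89282442: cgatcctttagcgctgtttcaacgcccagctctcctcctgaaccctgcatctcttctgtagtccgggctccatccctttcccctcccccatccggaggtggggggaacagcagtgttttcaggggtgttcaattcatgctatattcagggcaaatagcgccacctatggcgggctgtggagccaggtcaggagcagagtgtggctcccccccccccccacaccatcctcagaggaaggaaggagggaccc
Cdkn2b, chr4:89311033-89311282: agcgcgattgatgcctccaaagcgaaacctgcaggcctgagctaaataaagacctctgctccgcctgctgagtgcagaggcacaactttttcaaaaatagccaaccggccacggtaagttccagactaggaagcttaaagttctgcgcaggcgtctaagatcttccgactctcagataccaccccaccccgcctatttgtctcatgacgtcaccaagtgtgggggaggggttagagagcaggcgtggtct
The motifs were the forkhead motif GTAAACA, the E2F-type motif TTCCCGC, the GC box GGGCGG, the E box CACGTG and the TATA box TATAAA, and no match overlapped another. The search covered 300-base windows that also held the first 50 bases after the start. Table entries were found for 6 of the 7 genes, with 9 windows in all, and Cdkn1c was not among them. The E2F-type motif stood in 2 windows, at −25 of the first Cdkn2c start and at −98 of the upstream Cdkn2a start, whereas 4.60% of the 32851 mouse promoters held it. GC boxes were found in 7 of the 9 windows, against 35.7% of all promoters, with 4 in the first Cdkn2c window and 3 in the upstream Cdkn2a window. The second Cdkn2c window held an E box, as did 7.15% of promoters. The forkhead letters, held by 3.65% of promoters, and the TATA letters, held by 13.6%, were in 0 of the 9 windows. A match describes the letters only, and its absence says nothing of what binds there.

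Read totals per library ran from 25895041 to 61950773, and levels are given as CPM, a count scaled to that total. The gene-wide Kmt2d counts did not separate the labels: Kmt2d reached 73.7 and 95.6 CPM in MLL-AF9 cells with the deletion label, 61.7 and 79.5 CPM in the intact libraries, and 102, 115 and 116 CPM in the 3 libraries from marrow labelled MLL4-/-, above both intact ones. It stood at 13.9 CPM in the deleted and 1.88 CPM in the wild type LSK library. A count over the whole gene does not test the loss of the floxed part. Foxo3 stood at 1292 and 1309 CPM in the libraries that received FOXO3 and at 27.2 to 37.7 CPM in the other 5 MLL-AF9 libraries, as labelled. The 2 FOXO3 libraries were nearly identical (chi-square per degree of freedom 1.97, against 146 and 191 for the other pairs), so each call of an inhibitor gene is followed by its adjusted p with that pair summed into 1 library, and list and marker counts by their count with the pair summed. By Xist and Ddx3y, library 1 of the deleted pair and library 2 of the intact pair came from female cells and the other MLL-AF9 libraries from male cells. Among lymphoid markers, the B cell factors Pax5 and Ebf1 and the T cell gene Cd3e were below 1 CPM in every library, but Cd79b reached 35.5 CPM in the deleted LSK library and 10.2 CPM with the empty vector. Cd8b1 stood at 2.28 to 12.0 CPM in all 9 libraries, and Lck at 3.08 to 7.79 CPM in the MLL-AF9 libraries. In bulk RNA, fewer cells of a type and less RNA per cell cannot be told apart.

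**Figure D1:**
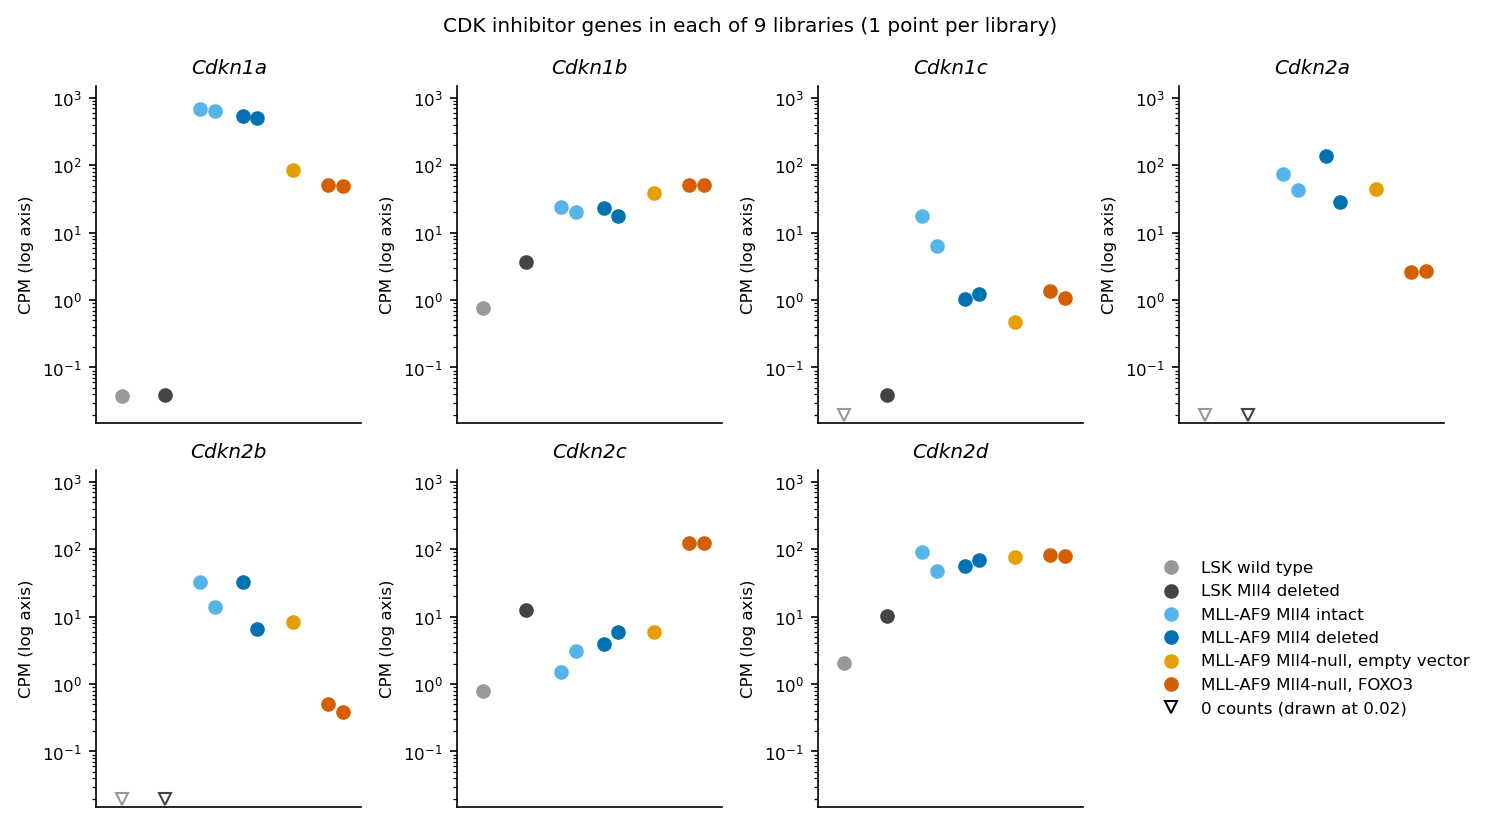
Level of each CDK inhibitor gene in CPM (log axis) in the 9 libraries, 1 point per library, coloured by group, with open triangles for 0 counts. Cdkn2c reaches 122 and 124 CPM in the FOXO3 libraries and stays below 13 CPM elsewhere, while Cdkn2a and Cdkn2b are lowest there among MLL-AF9 libraries.

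Per kilobase of annotated exon, the leading inhibitor transcript differed between the MLL-AF9 groups. In intact cells Cdkn1a led with 245 CPM per kilobase, followed by Cdkn2a with 49.9 and Cdkn2d with 46.7. Cdkn2b came next with 16.6 CPM per kilobase, then Cdkn1c with 6.19, Cdkn1b with 4.94 and Cdkn2c with 0.865. The order of Cdkn2a and Cdkn2d is not resolved, because their libraries spanned 36.0 to 63.7 and 32.0 to 61.3 CPM per kilobase, and neither is that of Cdkn1c (3.24 to 9.14) and Cdkn1b (4.52 to 5.36). In cells labelled Mll4 deleted the order at the top was again Cdkn1a (193 CPM per kilobase), Cdkn2a (71.0) and Cdkn2d (43.0), with Cdkn2a spanning 24.0 to 118. Cdkn1c moved from the fifth place in intact cells to the last place, at 0.587 CPM per kilobase. In the empty-vector cells of the second transformation Cdkn2d led with 51.8 CPM per kilobase, ahead of Cdkn2a (37.8) and Cdkn1a (31.4). With FOXO3, Cdkn2d (54.5 CPM per kilobase) and Cdkn2c (45.8) stood at the top, and Cdkn2a (2.27) and Cdkn2b (0.321) were near the bottom with Cdkn1c (0.622). The mean of Cdkn2d thus stayed between 43.0 and 54.5 CPM per kilobase in all 4 MLL-AF9 groups, and the means of Cdkn2b and Cdkn2c lay below it in each. With FOXO3 the mean of Cdkn2c stood above those of Cdkn2a and Cdkn2b, whereas it lay below both in the other groups.

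**Figure D2:**
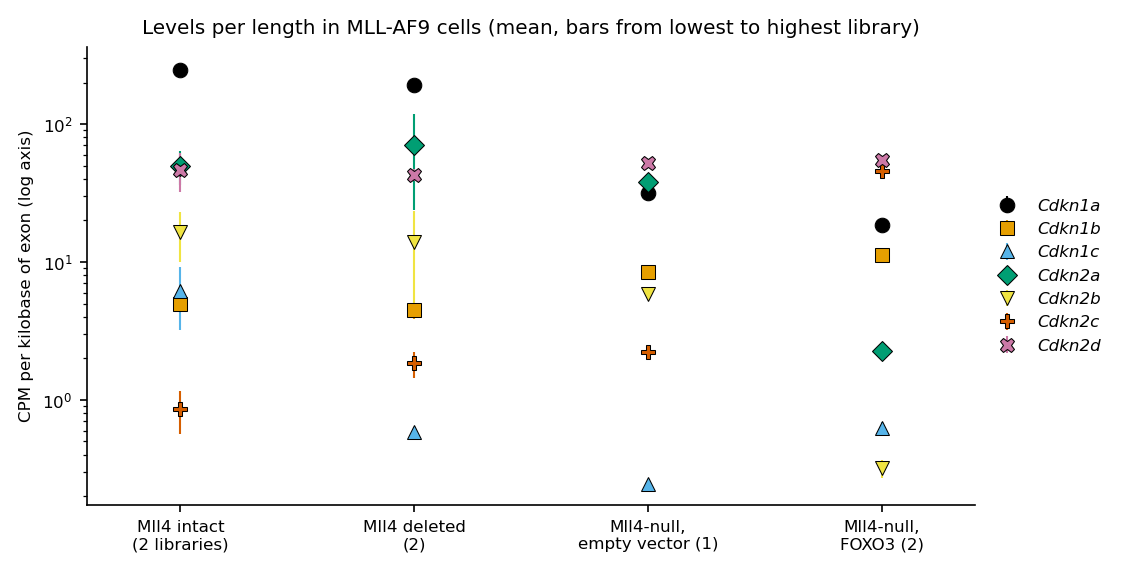
Mean level of each gene per kilobase of exon (CPM per kilobase, log axis) in the 4 MLL-AF9 groups, with bars from the lowest to the highest library. Cdkn1a stands highest in the first transformation, and Cdkn2c moves from 2.23 with the empty vector to 45.8 with FOXO3.

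Mll4 loss in the first transformation asks how the brakes respond when the methyltransferase is deleted in cells that already grow. Cdkn1a and Cdkn1c were lower in the cells labelled Mll4 deleted, and the other 5 genes did not pass the test. The test was edgeR's quasi-likelihood test on the counts of the 7 MLL-AF9 libraries, with Benjamini-Hochberg adjustment over 14997 genes and a threshold of 0.05, and all 7 inhibitor genes passed its expression filter. The 2 of 7 called genes, both lower, stand against 14.9% of all genes tested in either direction and 6.94% called lower. With the FOXO3 pair summed, edgeR called 0 of the 7, against 2.08% of genes, and 2 had an unadjusted p under 0.05. DESeq2, on all 7 libraries, called the same 2 genes, among 3695 genes that it called in all (2237 by edgeR). Across the 7 genes the median log2 fold change was −0.42, beside −0.03 over all genes tested.

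Cdkn1a encodes p21, the main CDK inhibitor induced by p53. The deleted libraries held 545 and 507 CPM, and the intact libraries 695 and 637 CPM. Both deleted libraries lay below both intact ones, as was true in either direction for 59.0% of genes. The log2 fold change was −0.62 ± 0.11 (SE), with an edgeR adjusted p of 0.0212, and the adjusted p was 0.135 with the pair summed. With total counts in place of TMM scaling factors, the log2 fold change was −0.34 and the edgeR adjusted p 0.0790, on a scale where the median of all genes lay 0.28 higher and 83.1% of calls were higher, against 53.5% in the main fit.

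Cdkn1c encodes p57, an imprinted gene tied to stem cell quiescence. It stood at 1.05 and 1.23 CPM in the deleted libraries and at 17.8 and 6.28 CPM in the intact ones. Both intact libraries were higher, although they differed from each other more than the deleted ones did. On mean CPM the gene was 10.5-fold lower after deletion. The log2 fold change was −3.65 ± 0.50, with an edgeR adjusted p of 0.0142, and the adjusted p was 0.0505 with the pair summed. Its neighbour Slc22a18, from the same imprinted cluster, was also lower, at a mean of 2.59 against 4.27 CPM (log2 fold change −1.0 ± 0.24, edgeR adjusted p = 0.0486, and 0.162 with the pair summed). It was the 1 gene called of 14 neighbours and like-named genes, where 14.9% of all genes were called. Of the same cluster, Nap1l4 (129 against 100.3 CPM on average, edgeR adjusted p = 0.564) and Kcnq1ot1 (29.5 against 28.0 CPM, edgeR adjusted p = 0.567) were not called. Kcnq1 (0 and 0 against 0.270 and 0.182 CPM) and Phlda2 (0.210 and 0 against 0.457 and 0.222 CPM) stood lower, at few reads, and were not called.

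Cdkn1b encodes p27, which accumulates in resting cells. It stood at 23.0 and 17.7 CPM in the deleted libraries and at 24.4 and 20.6 CPM in the intact ones, and these ranges overlapped. Its log2 fold change was −0.42 ± 0.15, with an edgeR adjusted p of 0.110. Without library 1 of the deleted pair its edgeR adjusted p was 0.0321.

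Cdkn2a and Cdkn2b, which lie side by side in the genome, varied within each group more than between groups. Cdkn2a, whose counts hold both its transcripts, stood at 138 and 28.1 CPM in the deleted libraries and at 74.6 and 42.2 CPM in the intact ones. The deleted pair held both the highest and the lowest value. The log2 fold change was 0.25 ± 0.68, with an edgeR adjusted p of 0.829. Between the female libraries Cdkn2a was higher in the deleted one (138 against 42.2 CPM), and between the male libraries it was lower (28.1 against 74.6 CPM). Cdkn2b, which encodes p15, a target of TGF-beta signalling, stood at 32.5 and 6.65 CPM in the deleted libraries and at 32.2 and 13.9 CPM in the intact ones. It too was high in library 1 and low in library 2 of each pair. Its log2 fold change was −0.49 ± 0.73, with an edgeR adjusted p of 0.682.

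Cdkn2c encodes p18, and it was the least abundant inhibitor per length in intact cells. It stood at 3.89 and 5.99 CPM in the deleted libraries and at 1.52 and 3.13 CPM in the intact ones. These did not overlap, as was so for 59.0% of all genes. The log2 fold change was 0.77 ± 0.41, with an edgeR adjusted p of 0.244. Cdkn2d encodes p19INK4d, and it stood at 56.9 and 69.8 CPM in the deleted libraries, within the range of the intact ones at 90.4 and 47.2 CPM. Its log2 fold change was −0.38 ± 0.26, with an edgeR adjusted p of 0.365.

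Marker levels also differed between the deleted and intact libraries. The summed CPM of 5 primary granule markers, which mark promyelocytes, was 10201 and 13608 in the deleted libraries and between 1711 and 2446 in the intact ones, with 5 of 5 called higher (4 with the pair summed). The summed CPM of 8 monocyte and macrophage markers was 2021 to 3404 in the deleted and 3972 to 4713 in the intact libraries, with 1 of 8 called lower (also 1 with the pair summed), and none of them was at 0 in either group. The 6 mast cell, basophil and eosinophil markers summed to 10301 CPM in deleted library 1 and 1298 CPM in deleted library 2. Cdkn2a and Cdkn2b were high and low in the same libraries. Most of the first sum was Cpa3 (8380 CPM, against 334 CPM in library 2). Mcpt8, Fcer1a, Ms4a2 and Epx were also higher in library 1, whereas Prg2 was lower there (145 against 459 CPM). Of 6 megakaryocyte and platelet markers 3 were called lower and 0 higher (1 and 0 with the pair summed). Of 4 stroma and endothelium markers tested 2 were lower and 0 higher (0 and 0 with the pair summed). Of 7 neutrophil markers 1 was higher and 1 lower (1 and 0 with the pair summed). The 10 stem and progenitor, 5 T and NK cell and 4 erythroid markers tested each gave 1 lower and 0 higher (0 and 0 with the pair summed). Counts of 1 per list stand beside 7.97% of all genes called higher and 6.94% lower. The part of these cell types in the inhibitor values was not tested.

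**Figure D3:**
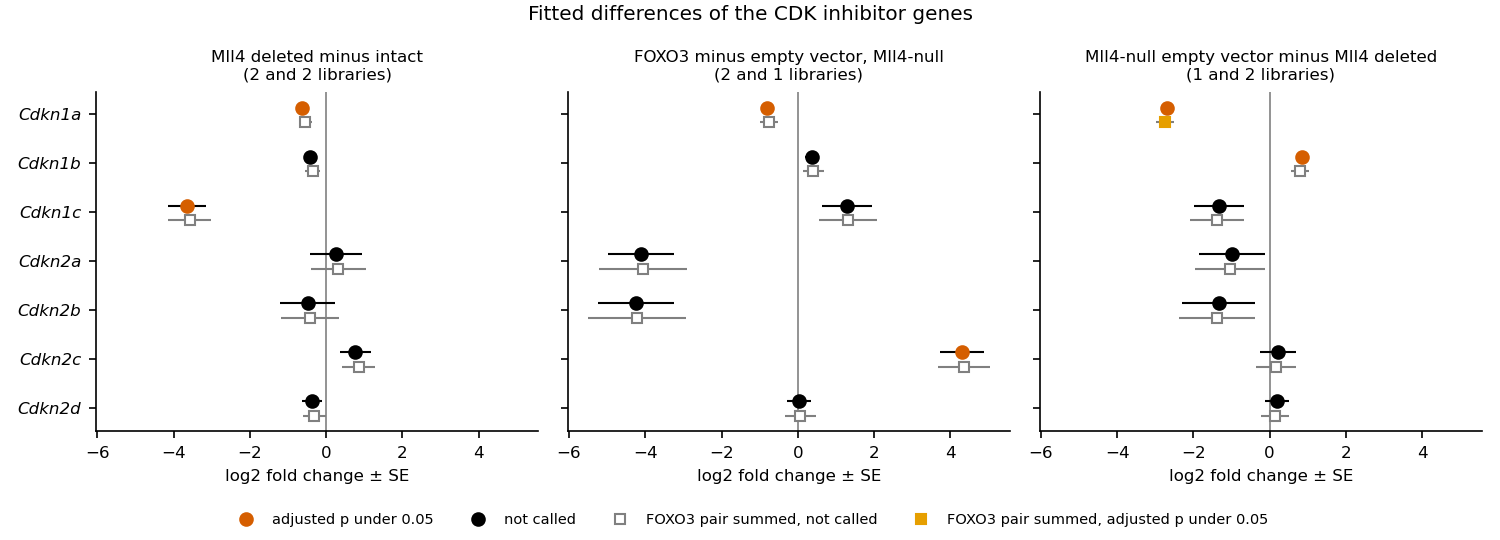
Log2 fold change ± SE of the 7 genes in the 3 comparisons of MLL-AF9 cells from the edgeR fit (circles) and with the FOXO3 pair summed (squares). Filled coloured symbols have an adjusted p under 0.05: 2 genes in each comparison, and with the pair summed Cdkn1a alone in the third.

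FOXO3 expression in the second transformation asks how the inhibitors differ with this factor in cells labelled as lacking Mll4. Cdkn2c was 20.5-fold higher on mean CPM in the cells with FOXO3 than in the empty-vector cells, and Cdkn1a was 1.68-fold lower. Cdkn2a and Cdkn2b stood 16.7-fold and 18.4-fold lower on mean CPM but did not pass the threshold, and Cdkn1b, which is known as a FOXO target in other cells, did not pass it either. The 2 of 7 called genes stand against 7.13% of all genes tested, with 2.20% called higher and 4.93% lower. With the pair summed, edgeR called 0 of 7, against 1.19% of genes, and 4 had an unadjusted p under 0.05. DESeq2, on all 7 libraries, called Cdkn2a and Cdkn2b as well, which makes 4, and its share over all genes is not given here. Only 1 empty-vector library was made, so the spread comes from the other groups.

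Cdkn2c stood at 122 and 124 CPM with FOXO3 and at 6.00 CPM with the empty vector. Both FOXO3 libraries were far above the control, and no other MLL-AF9 library exceeded 6.00 CPM. With 2 libraries against 1, 90.6% of all genes showed no overlap, so the lack of overlap carries little here. Its log2 fold change of 4.31 ± 0.57 had an edgeR adjusted p of 0.0143, and the adjusted p was 0.0657 with the pair summed. With the sex of the library as a term, the adjusted p was 0.0517 at a log2 fold change of 4.31. The next gene on the chromosome, Faf1, which encodes an adaptor of the ubiquitin system, was also higher, at 149 and 150 CPM with FOXO3 and 65.7 CPM with the empty vector. The fitted log2 difference of Faf1 was 1.14 ± 0.22, with an edgeR adjusted p of 0.0389, and 0.156 with the pair summed. Cdkn2c overlapped no other gene in the RefSeq table, and the sources do not say whether counting used the strand.

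Cdkn2a stood at 2.64 and 2.67 CPM with FOXO3 and at 44.3 CPM with the empty vector. These were also the lowest Cdkn2a values among the MLL-AF9 libraries, the next being 28.1 CPM in a library labelled Mll4 deleted. Its log2 fold change of −4.11 ± 0.86 had an edgeR adjusted p of 0.0502, and the adjusted p was 0.221 with the pair summed. The adjusted p was 0.0493 with RLE scaling and 0.0490 with upper quartile scaling, so the call turns on the scaling. Cdkn2b stood at 0.512 and 0.379 CPM, which are 19 and 17 reads, with FOXO3 and at 8.21 CPM with the empty vector. Both FOXO3 values lay below every other MLL-AF9 library. In the RefSeq table Cdkn2b overlaps Gm12610, which has no row in the count files, and the use of strand is not known. Its log2 fold change was −4.25 ± 0.99, with an edgeR adjusted p of 0.0663, and the adjusted p was 0.250 with the pair summed. Without either library of the deleted pair, whose Cdkn2a levels differed most, the adjusted p was 0.0043 for Cdkn2a, and 0.0149 or 0.0153 for Cdkn2b. Without either intact library it was 0.108 or 0.110 for Cdkn2a and 0.113 or 0.116 for Cdkn2b, and with the sex term 0.102 and 0.132.

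The genes that flank this locus did not pass the test. Mtap, a methionine salvage enzyme on one side of Cdkn2a, stood at 44.1 and 42.4 CPM with FOXO3 and at 81.8 CPM with the empty vector (log2 fold change −0.97 ± 0.35, edgeR adjusted p = 0.179). Dmrta1, on the far side of Cdkn2b, stood at 0.755 and 0.913 CPM with FOXO3 and at 0.800 CPM with the empty vector (edgeR adjusted p = 1.0). The ratio of Cdkn2a to Cdkn2b counts was 5.40 with the empty vector (95% exact binomial interval 4.87 to 6.00) and 5.16 (3.13 to 8.93) and 7.06 (4.23 to 12.5) with FOXO3. These intervals, which cover counting error only, overlapped, while both genes stood at very different levels. The ratio was 4.26 and 4.22 in the deleted libraries and 2.32 and 3.03 in the intact ones, so the deleted pair agreed in the ratio although its Cdkn2a levels were far apart.

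**Figure D4:**
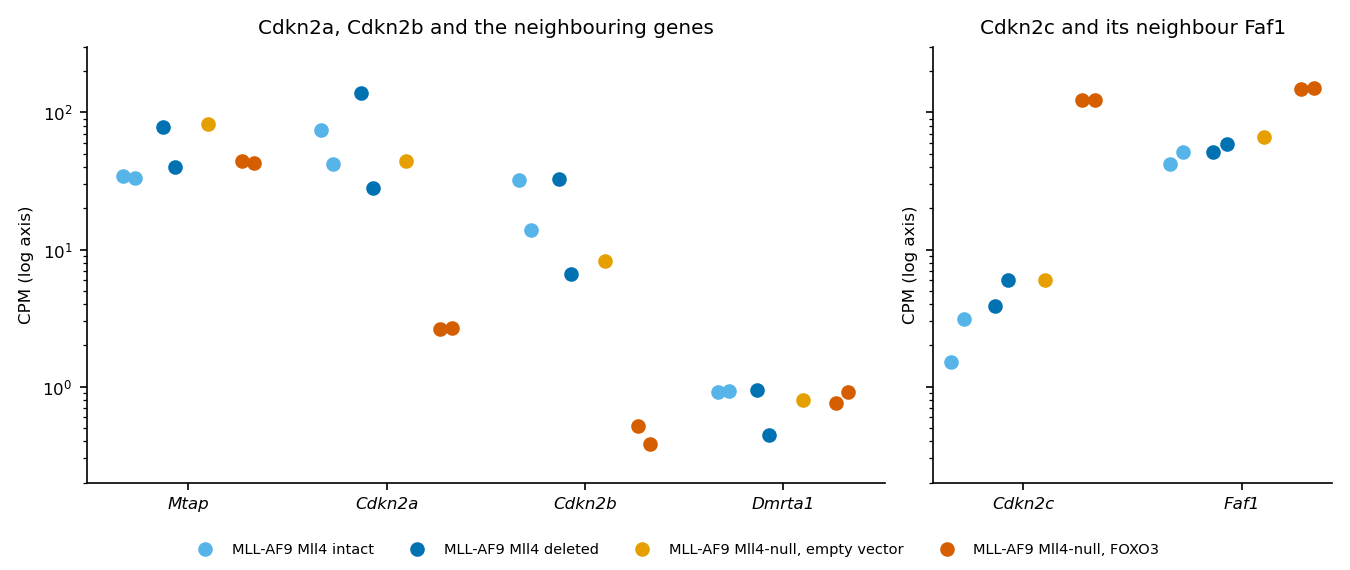
CPM (log axis) in the 7 MLL-AF9 libraries for Cdkn2a, Cdkn2b and the genes on either side (left) and for Cdkn2c and its neighbour Faf1 (right). Cdkn2a and Cdkn2b stand lowest with FOXO3 at 2.64 to 2.67 and 0.379 to 0.512 CPM, while Dmrta1 stays between 0.441 and 0.952 CPM in all groups.

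Cdkn1a stood at 51.5 and 49.9 CPM with FOXO3 and at 85.3 CPM with the empty vector. The log2 fold change was −0.80 ± 0.13, with an edgeR adjusted p of 0.0229, and the adjusted p was 0.262 with the pair summed. Cdkn1b stood at 51.4 and 51.7 CPM with FOXO3 and at 38.8 CPM with the empty vector. These were the highest Cdkn1b values of the MLL-AF9 libraries, but the log2 fold change of 0.36 ± 0.18 had an edgeR adjusted p of 0.315. Cdkn1c stood at 1.35 and 1.07 CPM with FOXO3 and at 0.476 CPM with the empty vector (log2 fold change 1.29 ± 0.65, edgeR adjusted p = 0.314). Cdkn2d stood at 81.6 and 79.2 CPM with FOXO3 and at 76.4 CPM with the empty vector, and its log2 fold change was 0.03 ± 0.32, with an edgeR adjusted p of 0.982. Over the 7 genes the median log2 fold change was 0.03, beside −0.04 over all genes.

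The mast cell, basophil and eosinophil markers were also lower with FOXO3, at a summed 248 to 251 CPM against 2261 CPM, with 3 of 6 called lower (1 with the pair summed) and Epx below 1 CPM. Monocyte and macrophage markers summed to 326 to 331 CPM against 369 CPM, with 3 of 8 called lower (2 with the pair summed). This sum is mostly Itgam, which stood higher with FOXO3 (291 and 294 against 257 CPM), as did Cd14. Csf1r, Adgre1, Cd68, Itgax, Mrc1 and Fcgr1 stood lower, with Mrc1 at 1.89 and 2.07 against 43.3 CPM. Erythroid markers summed to 1.18 to 1.54 CPM against 28.5 CPM, with 4 of 4 tested called lower (0 with the pair summed), and neutrophil markers to 3368 to 3469 CPM against 7978 CPM, with 1 of 7 called lower (0 with the pair summed). Primary granule markers summed to 20031 to 20098 CPM against 12484 CPM, with 0 of 5 called by edgeR. DESeq2 called 2 of the 5 (Elane and Ms4a3), and 2 had an edgeR p under 0.05 before adjustment. The part of these cells in the inhibitor values was not tested.

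The second transformation could be set beside the first, since its empty-vector cells and the cells labelled Mll4 deleted both lack Mll4 by their labels. They differ in transformation, vector and route of deletion, which cannot be told apart. This comparison shares the deleted pair with the Mll4 comparison and the empty-vector library with the FOXO3 comparison. Cdkn1a was 6.16-fold lower on mean CPM in the second transformation, at 85.3 CPM against 545 and 507 CPM. On the log2 scale this was −2.70 ± 0.15, with an edgeR adjusted p of 0.00229, and 0.0155 with the pair summed. Cdkn1b was higher, at 38.8 CPM against 23.0 and 17.7 CPM (log2 fold change 0.85 ± 0.18, edgeR adjusted p = 0.0260, and 0.105 with the pair summed). The 2 of 7 called genes stand against 21.7% of all genes tested, with 9.54% called higher and 12.2% lower, and with the pair summed 1 of 7 stands against 6.97%. Neither gene's values overlapped, as was so for 81.9% of genes.

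The other 5 inhibitors did not pass the test between the transformations. Cdkn2a at 44.3 CPM and Cdkn2b at 8.21 CPM lay between the libraries of the deleted pair, with edgeR adjusted p of 0.445 and 0.348. Without library 2 of the deleted pair, Cdkn2a was called lower with an edgeR adjusted p of 0.0307, and without library 1 its log2 fold change was 0.52, so its direction rests on which of those libraries is kept. Cdkn2c stood at 6.00 CPM, just above 5.99 CPM in the nearer deleted library, with an edgeR adjusted p of 0.768. Cdkn2d (76.4 CPM, edgeR adjusted p = 0.692) and Cdkn1c (0.476 CPM, edgeR adjusted p = 0.192) completed the set. Macrophage markers moved with this comparison: 8 of 8 were called lower, from a summed 2021 to 3404 CPM to 369 CPM, and 6 of 8 with the pair summed. Of the erythroid markers 4 of 4 tested were higher (2 with the pair summed), and of 6 megakaryocyte and platelet markers 2 were higher and 3 lower (0 and 1 with the pair summed). Their part in the Cdkn1a difference was not tested.

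LSK cells were compared without a test, because each genotype had 1 library, and their levels cannot be set against MLL-AF9 cells, whose libraries were made by another protocol. The 3 genes Cdkn2c, Cdkn2d and Cdkn1b, all with at least 20 reads, were higher in the library labelled Mll4 deleted. Cdkn2c had 323 reads (12.5 CPM) in the deleted and 21 (0.789 CPM) in the wild type library, a log2 ratio of 3.98 (95% exact binomial interval 3.35 to 4.69). Cdkn2d had 265 reads (10.2 CPM) against 54 (2.03 CPM), a log2 ratio of 2.33 (1.91 to 2.78). Cdkn1b had 96 reads (3.71 CPM) against 20 (0.752 CPM), a log2 ratio of 2.30 (1.60 to 3.08). These intervals cover counting error only. Ddx3y stood at 14.4 CPM in the deleted and 0.827 CPM in the wild type library, and Xist at 2.05 and 3.65 CPM. By these levels the deleted library was male and the wild type one female, although Xist was low in both, so sex may differ along with genotype. Of 10174 genes averaging 1 CPM or more, 63.0% differed at least 2-fold between these libraries and 28.1% were higher by that much in the deleted one, so folds of this size were common.

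The remaining 4 inhibitors were at or below the limit of detection in LSK cells. Cdkn1a had 1 read in each library and Cdkn1c had 1 in the deleted and 0 in the wild type library. Cdkn2a and Cdkn2b had 0 reads in both, which allows up to 0.116 CPM in the deleted and 0.113 CPM in the wild type library. Per kilobase of exon, Cdkn2d led in both libraries, with 6.94 and 1.38 CPM per kilobase, followed by Cdkn2c with 4.64 and 0.294 and Cdkn1b with 0.814 and 0.165. Stem and progenitor markers summed to 940 CPM in the deleted and 1366 CPM in the wild type library. Among them Kit (102 against 46.8 CPM) and Cd48 were higher in the deleted library and the others lower. Procr stood at 12.8 against 181 CPM and Slamf1 at 0 against 30.0 CPM. The erythroid marker Klf1 stood at 0 CPM in the deleted and 92.8 CPM in the wild type library. The macrophage markers summed to 2.47 and 0.677 CPM. The neighbour of Cdkn2c, Faf1, stood at 6.84 CPM in the deleted and 25.7 CPM in the wild type library, opposite to Cdkn2c itself.

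The inhibitors act on cyclins and kinases, and those lists gave a different picture for each comparison. With Mll4 loss, 16 of 19 genes of replication and mitosis were higher and 0 lower, where 7.97% of all genes were called higher, and 12 were higher with the pair summed. Their median log2 fold change was 1.35, beside −0.42 for the inhibitors. Top2a, which untangles DNA, rose by 1.39 ± 0.11 on the log2 scale (edgeR adjusted p = 0.00739, and 0.0484 with the pair summed). Among the 7 cyclins and kinases of the E, A and B type, 6 were higher (2 with the pair summed), including Ccnb2 (log2 fold change 1.39) and Cdk1 (1.34), which were called with the pair summed too. Of 5 D cyclins and their kinases, which INK4 proteins target, Cdk4 was higher (log2 fold change 0.53, edgeR adjusted p = 0.0482, and 0.126 with the pair summed). Ccnd1, the cyclin D1 gene, was lower (−1.79, edgeR adjusted p = 0.00974, and 0.0484 with the pair summed).

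Genes that activate the kinases or remove their inhibitors were also called with Mll4 loss. Beside the counts below, 7.97% of all genes were called higher and 6.94% lower, and 2.08% in either direction with the pair summed. Of 8 kinase activators and brakes, 3 were higher and 0 lower (1 and 0 with the pair summed). Cdc25a, a phosphatase that switches the kinases on, had a log2 fold change of 1.18 and was called with the pair summed, and Wee1, which switches them off, had 0.81 and was not. Of 9 genes of inhibitor degradation, 4 were higher and 1 lower (3 and 0 with the pair summed). Skp2, which marks p27 protein for degradation, was higher by a log2 fold change of 1.61 ± 0.13 (edgeR adjusted p = 0.00758, and 0.0484 with the pair summed), and its partner Cks1b by 1.23 (0.0484 with the pair summed). The transcript of Cdkn1b was not called in the same comparison. Of 11 RB and E2F genes, 3 were higher (0 with the pair summed), led by the repressors E2f7 and E2f8 at log2 fold changes of 1.14 and 0.94. Of 21 tested genes described as regulators of the inhibitors, 3 were higher and 3 lower (0 and 1 with the pair summed). Ezh2, the Polycomb methyltransferase, was at 0.88, and Klf4, a zinc finger factor that activates Cdkn1a, at −1.50 was the 1 called with the pair summed.

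With FOXO3 edgeR called few genes of these lists, although Cdkn2c and Cdkn1a were called, and it called 7.13% of all genes. None of the 19 replication and mitosis genes, the 7 E, A and B cyclins and kinases, the 8 activators and brakes or the 9 degradation genes was called by edgeR. Of these 42 different genes 3 had an unadjusted p under 0.05, and DESeq2 called 3 (Dtl, Fbxo4 and Mcm6). Mcm6 (810 and 796 against 493 CPM) and Dtl (124 and 125 against 87.9 CPM) stood higher with FOXO3, and Fbxo4 (4.02 and 4.34 against 7.60 CPM) lower. A lack of calls against 1 empty-vector library does not show that a gene was unchanged. In the D-type list and in the RB and E2F list, edgeR called 1 gene each. Cdk6, a direct partner of p18, rose by 0.75 ± 0.14 on the log2 scale (edgeR adjusted p = 0.0323, and 0.210 with the pair summed), while Cdk4 stood at −0.50 ± 0.15 (edgeR adjusted p = 0.126). E2f4, a repressive E2F, was lower (log2 fold change −0.57, edgeR adjusted p = 0.0340, and 0.324 with the pair summed). Median log2 fold changes of these lists lay between −0.23 and −0.03. Among the 21 regulators, Foxo3 was higher, as transduced, and Klf4 was lower (0.0604 against 2.34 CPM, log2 fold change −5.24, edgeR adjusted p = 0.00203, and 0.0258 with the pair summed). Between the transformations, 10 of 19 replication and mitosis genes were higher (0 with the pair summed).

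**Figure D5:**
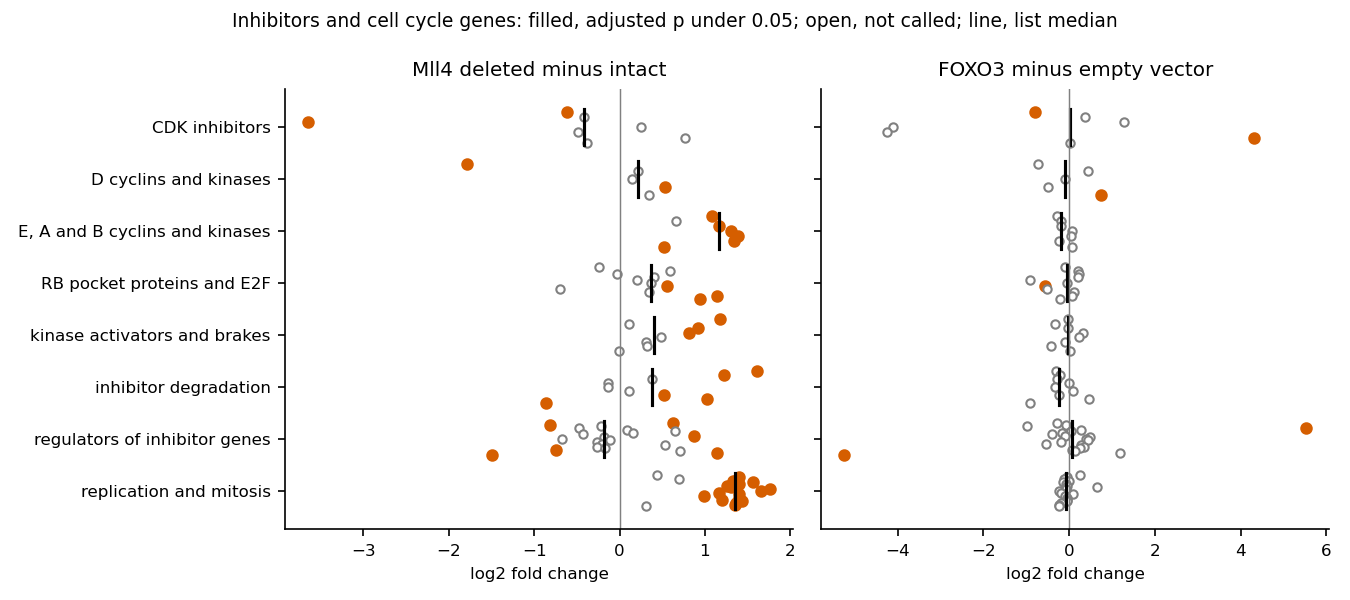
Log2 fold change of every tested gene in the inhibitor set and 7 cell cycle lists, for Mll4 loss (left) and FOXO3 (right), with the list median as a line. Replication and mitosis genes centre on 1.35 with Mll4 loss and on −0.08 with FOXO3, where Cdkn2c (4.31), Cdkn2a and Cdkn2b lie far outside the kinase lists.

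Across 6 MLL-AF9 points, with the FOXO3 pair averaged, the inhibitors did not vary as 1 group. Cdkn2a and Cdkn2b ran together (Pearson r = 0.97 of log2(CPM + 1)), and both ran against Cdkn2c (r = −0.92 and −0.93). For these genes the FOXO3 point, with Cdkn2c at 123, Cdkn2a at 2.66 and Cdkn2b at 0.446 CPM, lay far from the others. It thus weighs heavily in these correlations, which were not computed without it. Cdkn1a ran against Cdkn1b (r = −0.94), and Cdkn2d was weakly related to the other inhibitors (r from −0.41 to 0.48). The points share their transformations, so these values describe this set of libraries alone. Among 9304 genes with at least 10 CPM on average, the pattern most like that of Cdkn2c was that of its neighbour Faf1 (r = 0.99), followed by Herc2 and Rab3gap1. The closest to Cdkn1a were Prmt2, Rap2b and Serpinb6a, and to Cdkn1b Ash1l, Rabgap1l and Socs4. The closest to Cdkn1c were Ipmk, Mirt1 and Ddit3. Cdkn2a was most like Ttc39b, Slc7a8 and Osm, Cdkn2b like Serpina3i, Fam102a and Hgf, and Cdkn2d like Pcsk7, Ccdc9 and Zfp790. The lowest of these correlations was 0.98. They were picked as the 3 highest per member among 9304 genes over only 6 points, so their height alone says little.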

How the data were processed

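The authors deposited raw counts of reads for each NCBI gene number as whole numbers, with a separate file for each library. TopHat2 2.0.11, Bowtie 0.12.8 and the build mm9 are named per the submitters' processing notes. How reads were counted, with which annotation and strand setting, is not given in the sources used here. Gene symbols came from the RefSeq table of GRCm38.p6, which matched 23185 of 23282 numbers, and exon lengths from GENCODE M21. Unmatched numbers (0.0373% to 1.01% of counts) stayed in totals and tests.

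Groups follow the labels. The 7 MLL-AF9 libraries entered 1 edgeR 4.0.16 fit (R 4.3.3, limma 3.58.1) with TMM scaling, filterByExpr, the quasi-likelihood test and Benjamini-Hochberg adjustment over 14997 genes. The 2 LSK libraries were compared by ratios with 95% exact binomial (Clopper-Pearson) intervals, and the limit for 0 is 3 counts. Intervals cover counting error only, since PCR copies were not marked. Named genes are all 7 members, the 2 genes of smallest p per list in the Mll4 and FOXO3 comparisons and the 3 most alike genes per member. Genes flanking a member, and others named beside them, were added after their values were seen. The members and lists were chosen with earlier results of these data known. Alternatives were other scalings and filters, robust fitting, DESeq2 1.42.0, other sample sets, a replicate block, a sex term and each library left out. The code was tested on simulated data.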

Additional observations from a re-analysis of the deposited data

How the results depend on the processing

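The count of inhibitor genes called with Mll4 loss was 2, and it was 0 with the FOXO3 pair summed, 1 with total counts only, 1 with a mean of at least 5 CPM (Cdkn1c was then not tested) and 0 with only the libraries compared, where edgeR called 0 of all genes (2237 in the main fit). For FOXO3 the count of 2 was 0 with the pair summed, 4 without an expression filter, 4 with DESeq2, 1 with the sex term and 6 with only the 3 libraries compared, where the near-identical pair sets the spread and 9710 genes were called (1069 in the main fit). For the second transformation the count of 2 was 1 with the pair summed and 0 with only the libraries compared. Leaving out each library in turn gave 0 to 3 calls for Mll4 loss, 0 to 4 for FOXO3 and 1 to 3 for the second transformation. The lowest counts came without either FOXO3 library, and the counts of 4 for FOXO3 without either library of the deleted pair. The cause of the other differences was not tested.

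Cdkn2c with FOXO3 had a log2 fold change of 4.06 to 4.36 over 17 alternatives, and Cdkn1c with Mll4 loss −4.17 to −2.82 over 17, all in the same direction. Signs reversed only for genes not called. With Mll4 loss, Cdkn2a was at −0.12 with the sex term and ran from −1.24 (without deleted library 1) to 0.98 with a library left out, with −0.04 without intact library 2. Cdkn2b ran from −1.97 to 0.24 (without deleted library 2), with 0.13 without intact library 1, and Cdkn2d from −0.71 to 0.064 (without intact library 1). Between the transformations, leaving out deleted library 1 gave the reversed ends of these ranges: −1.72 to 0.52 for Cdkn2a, −2.06 to 0.17 for Cdkn2b, −0.13 to 0.55 for Cdkn2c and −0.0039 to 0.35 for Cdkn2d. The sex term put Cdkn2d at −0.079.

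Library numbers come from file names. They do not pair animals in the first set, where library 1 of the deleted pair was female and library 1 of the intact pair male. Differences of library 1 and library 2 correlated at 0.27 between the deleted and intact pairs. With the FOXO3 pair they correlated at 0.0069 (deleted) and −0.016 (intact). What else libraries of the same number may share was not tested. With the number as a replicate block, 2 genes were called with Mll4 loss, 3 with FOXO3 and 2 between the transformations, and Cdkn2a was at −0.0047 with Mll4 loss. For FOXO3 the block gave edgeR adjusted p of 0.0505 for Cdkn1a, 0.0347 for Cdkn2a and 0.0184 for Cdkn2b. The empty-vector library cannot be left out of its own comparisons. In LSK cells, a pseudocount of 1 CPM gave log2 ratios of 2.91 for Cdkn2c, 1.89 for Cdkn2d and 1.43 for Cdkn1b, and depth does not resolve the other 4 genes there.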

Other observations

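Noncoding neighbours of Cdkn1a and Cdkn1b were looked up after the other values were seen. Trp53cor1, the lincRNA-p21 gene before Cdkn1a, stood between 2.26 and 4.33 CPM in the 7 MLL-AF9 libraries, over which Cdkn1a ran from 49.9 to 695 CPM. Lockd, the noncoding gene after Cdkn1b, stood at 3.20 and 2.99 CPM in the intact libraries and at 9.01 and 10.3 CPM in the deleted ones, without overlap (log2 fold change 1.36 ± 0.17, edgeR adjusted p = 0.0117, and 0.0493 with the FOXO3 pair summed). Between the deleted and intact libraries 59.0% of all genes showed no overlap. Cdkn1b itself had a log2 fold change of −0.42 and was not called in that comparison. In the second transformation Lockd stood at 20.4 CPM with the empty vector and at 26.4 and 22.2 CPM with FOXO3 (edgeR adjusted p = 0.610). Rab44, after Cdkn1a, was higher with Mll4 loss, at 769 and 547 CPM against 315 and 169 CPM (log2 fold change 1.19 ± 0.28, edgeR adjusted p = 0.0470, and 0.106 with the pair summed), while Cdkn1a was lower.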
